A study of Mus musculus with 6 samples.

Results

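The 10 genes described here encode the kinase mTOR, the scaffolds of its complexes, the proteins that switch it on and off at the lysosome, its stress-induced inhibitors and a repressor of translation that it phosphorylates. They were chosen by name (Mtor, Rptor, Rictor, Tsc1, Tsc2, Rheb, Sesn1, Sesn2, Ddit4 and Eif4ebp1), and each was read by 1 probe. All 10 had a value on every array, among 15224 genes that could be tested. RNA came from CH12F3-2A, a B lymphoma line of the mouse whose cells switch from IgM to IgA under CD40L, IL4 and TGFb (CIT). By electroporation, 3 samples received control siRNA (siControl) and the other 3 received siRNA directed at Spt6 (siSpt6). They were cultured for 24 h, given CIT, and harvested after another 24 h. Both groups therefore carried an siRNA and both were stimulated, and the cells were a single line transfected transiently. The study addressed what Spt6, a histone chaperone that accompanies elongating RNA polymerase II, does in the targeting of AID, the deaminase of class switching, and the arrays compare transcript levels without and with the siRNA against it.

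mTOR is a kinase that joins nutrient, growth factor and energy signals to protein synthesis and cell growth. It works in mTORC1, built on Raptor (Rptor), and in mTORC2, built on Rictor. At the lysosome the small GTPase Rheb activates mTORC1, and the TSC complex (Tsc1 and Tsc2) holds Rheb in its inactive form. Sestrins (Sesn1 and Sesn2) restrain mTORC1 when amino acids are short, and the product of Ddit4, also called REDD1, restrains it through the TSC complex in hypoxia and other stress. Active mTORC1 phosphorylates the product of Eif4ebp1 and so releases the cap-binding factor eIF4E for translation. In B cells the pathway supports growth after activation.

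Array medians lay between 29.975 and 29.998 intensity units, and an array lacked a value for 4.69% to 8.29% of its 23473 probes. Log2 intensities correlated with r of 0.987 to 0.991 within a group and 0.976 to 0.981 between groups, across probes, which are not independent replicates. The probe for Supt6, the gene of Spt6, had a mean intensity of 32.4 ± 0.546 in siControl (SD, n = 3) and 25.0 ± 3.15 in siSpt6 (SD, n = 3), which missed the threshold used here (limma adjusted p = 0.0973). Of the B cell markers 8 of 9 were measured and all 8 had a mean above the array median, though Pax5 read 27.0 on siSpt6 replicate 2. Their summed intensity was 30390 to 34440 in siControl and 31370 to 34620 in siSpt6. Most of that sum was Cd74, with means of 21110 and 17740 (limma adjusted p = 0.245). Among the B cell markers Cd79b and Blk rose and Cd22 fell, where 7.40% of all genes rose and 9.65% fell (limma adjusted p under 0.05). The plasma cell markers summed to 2166 to 2394 in siControl and 1764 to 2021 in siSpt6 (4 of 5 measured), where Xbp1 fell. Of the other lists, 2 of 4 plasma cell markers (Irf4 and Xbp1) and 1 of 5 myeloid markers (Csf1r) had a mean above the array median. So did 0 of 5 T cell markers and 0 of 1 erythroid marker. Sdc1, Cd3e, Itgam, Cd14 and Mpo were blank on at least 1 array. The T cell markers (5 of 6 measured) summed to 41.1 to 59.5 and 43.4 to 49.8, the myeloid markers (5 of 6) to 67.1 to 84.4 and 79.7 to 87.5, and the 1 erythroid marker measured to 25.8 to 30.6 and 24.2 to 28.2. Of the T cell, myeloid and erythroid markers 0 passed the test (limma), beside 17.0% of all genes. The 1 myeloid marker with an unadjusted p under 0.05 was lower, as were 17.4% of all genes, with 13.9% higher. Most of these markers lay below the array median, so the counts say little about other cells. The part of any other cell type in the differences was not tested. Separate cultures are not named in the labels, so p-values measure only how far these samples spread, and that spread may be technical. Sample names in the labels are given for the siControl arrays and not for the siSpt6 arrays, and the sources used here do not give whether all arrays were hybridised together. In bulk RNA, fewer cells that express a gene and less RNA per cell cannot be told apart.

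The stress-induced inhibitors and the translational repressor fell in siSpt6. The genes of the kinase, its scaffolds, the TSC complex and Rheb did not pass the test. Rheb missed the threshold (limma adjusted p = 0.0607), but its log2 difference of -0.49 lay between those of Sesn1 (-0.46) and Eif4ebp1 (-0.51). Of the 10 genes, 4 fell (Sesn2, Ddit4, Eif4ebp1 and Sesn1) and 0 rose (limma, Benjamini-Hochberg adjusted p under 0.05 over all probes). Over all genes tested, 17.0% changed at the same adjusted p, 9.65% lower and 7.40% higher. At an unadjusted p under 0.05, 5 of the 10 were lower and 0 higher, against 17.4% lower and 13.9% higher of all genes. The falls of the 4 genes left between 55.1% and 72.6% of the control level. The groups did not overlap for 6 of the 10 genes, 5 of them lower and 1 higher in siSpt6, against 21.6% lower and 16.9% higher of the genes with 6 values. The median log2 difference of the 10 genes was -0.33, and that of all genes tested was -0.0019. The median of the 10 was -0.17 after quantile normalization and -0.19 after cyclic loess.

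**Figure D1:**
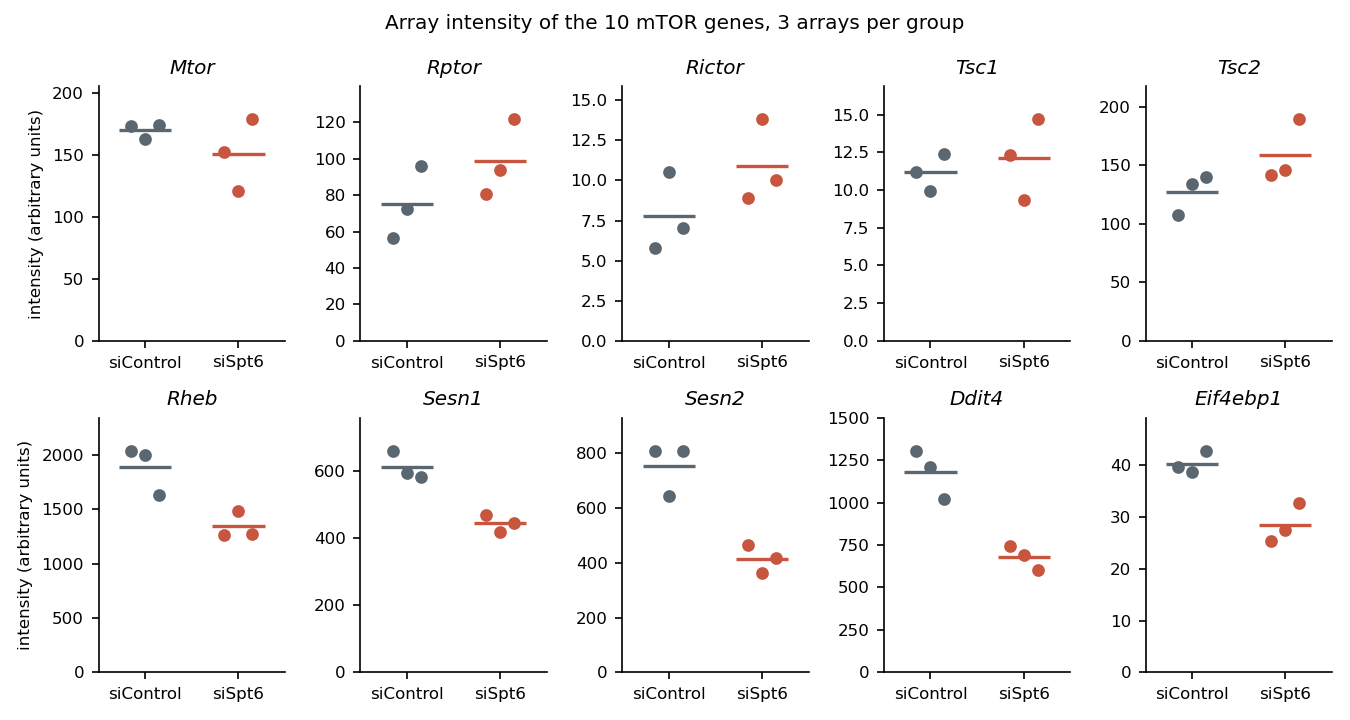
Array intensity (arbitrary units, linear axis from 0, a separate scale for each gene) of the 10 genes in siControl and siSpt6, with 1 point per array and a bar at the mean of 3. The siSpt6 points of Rheb, Sesn1, Sesn2, Ddit4 and Eif4ebp1 lie below all siControl points, those of Tsc2 lie above them, and those of Mtor, Rptor, Rictor and Tsc1 overlap with them.

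Mtor, the gene for the kinase itself, read 173, 163 and 174 in siControl and 153, 121 and 179 in siSpt6. The highest value of all was thus a siSpt6 array and the lowest was too, so the groups overlapped. The log2 difference was -0.19 (SE 0.16, 95% interval -0.58 to 0.20; limma adjusted p = 0.493).

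Rptor, the scaffold that brings substrates to mTORC1, read 56.4, 72.6 and 96.0 in siControl and 80.7, 93.7 and 122 in siSpt6. Its replicates spread widely in both groups, and the log2 difference of 0.41 (SE 0.24) had an interval from -0.15 to 0.97 (limma adjusted p = 0.305). Rictor, the scaffold of mTORC2, was dim, at 5.79, 10.5 and 7.05 in siControl and 8.89, 13.8 and 10.0 in siSpt6. Its log2 difference was 0.51 (SE 0.26, interval -0.11 to 1.13; limma adjusted p = 0.250). Neither scaffold gene passed the test, and their intervals include values near a doubling. With the replicate number added to the fit as a block, the SEs were 0.097 for Rptor and 0.10 for Rictor. Rptor still missed the threshold and Rictor passed it (limma adjusted p = 0.060 and 0.0417), but the labels do not say what the numbers share. Rictor and Tsc1 lay well below the array median of about 30, in a range where the background is not known.

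Tsc1 and Tsc2, the core of the complex that brakes Rheb, did not pass the test. Tsc1, which stabilises the complex, read 11.2, 9.94 and 12.4 in siControl and 12.3, 9.35 and 14.7 in siSpt6, a log2 difference of 0.10 (SE 0.19, interval -0.35 to 0.55; limma adjusted p = 0.778). Tsc2, the subunit that acts on Rheb, read 107, 134 and 139.9 in siControl and 142, 146 and 189 in siSpt6. All 3 siSpt6 arrays were above all siControl arrays, the closest pair being 139.9 and 141.8. The log2 difference of 0.32 (SE 0.17, interval -0.08 to 0.72) did not pass the test (limma adjusted p = 0.262).

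Rheb, the GTPase that activates mTORC1, read 2038, 1996 and 1628 in siControl and 1265, 1488 and 1277 in siSpt6. Every siSpt6 array was below every siControl array. The log2 difference was -0.49 (SE 0.14, interval -0.82 to -0.15), which just missed the threshold (limma adjusted p = 0.0607). The difference shrank to -0.21 after quantile normalization and -0.25 after cyclic loess (limma adjusted p = 0.361 and 0.287).

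Sesn2, the sestrin that binds leucine and responds to amino acid shortage and to stress of the endoplasmic reticulum, had the largest difference of the 10 genes. It read 808, 642 and 808 in siControl and 463, 362 and 417 in siSpt6, so that the highest siSpt6 array stood well below the lowest siControl array. The means were 753 ± 96.0 and 414 ± 50.5 (intensity ± SD, n = 3 each). The level in siSpt6 was 55.1% of that in siControl, a log2 difference of -0.86 (SE 0.15, interval -1.23 to -0.50; limma adjusted p = 0.0120).

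Ddit4 read 1305, 1209 and 1018 in siControl and 745, 693 and 605 in siSpt6, again without overlap. Its means were 1177 ± 146 and 681 ± 70.6 (intensity ± SD, n = 3 each), so 57.95% of the control level remained. The log2 difference was -0.79 (SE 0.15, interval -1.14 to -0.44; limma adjusted p = 0.0140). Sesn2 and Ddit4 kept their calls in all 16 alternative settings tried at this threshold, with limma adjusted p up to 0.0434 and 0.0479.

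Sesn1, the sestrin best known as a target of p53 and of FOXO factors, fell less. It read 661, 594 and 583 in siControl and 469.8, 418 and 445 in siSpt6, which was 72.6% of the control level. The log2 difference of -0.46 (SE 0.12, interval -0.74 to -0.18; limma adjusted p = 0.0400) depended on the scaling, at -0.28 after quantile normalization and -0.31 after cyclic loess (limma adjusted p = 0.174 and 0.120). Leaving out any 1 of the 6 arrays also ended its call (limma adjusted p from 0.0718 to 0.118).

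Eif4ebp1, the translational repressor downstream of mTORC1, read 39.6, 38.6 and 42.8 in siControl and 25.4, 27.5 and 32.7 in siSpt6. The groups did not overlap, and the mean went from 40.3 ± 2.19 to 28.5 ± 3.77 (intensity ± SD, n = 3 each). The log2 difference was -0.51 (SE 0.14, interval -0.83 to -0.18), 70.4% of the control level (limma adjusted p = 0.0478). It was much the same after quantile normalization (-0.51) and cyclic loess (-0.53), both past the threshold. The call was lost without any 1 array other than siSpt6 replicate 3 (limma adjusted p from 0.0959 to 0.128).

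**Figure D2:**
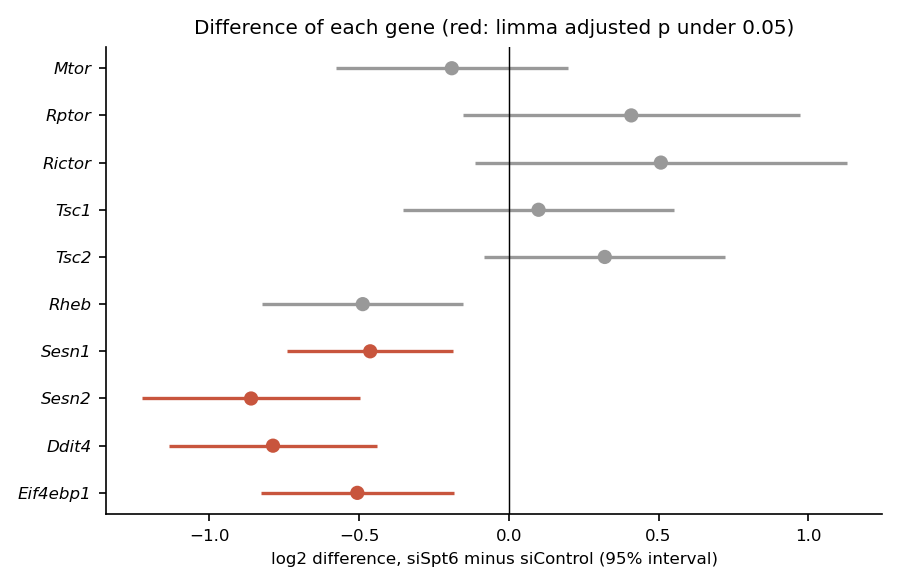
Log2 difference of each gene (siSpt6 minus siControl, points) with its 95% interval from the limma fit (lines), 3 arrays per group. The intervals of Sesn1, Sesn2, Ddit4 and Eif4ebp1, in red for an adjusted p under 0.05, and of Rheb lie wholly below 0, and those of Mtor, Rptor, Rictor, Tsc1 and Tsc2 include 0.

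Brightness moved with the direction. Over all genes, the median log2 difference was 0.08 in the dimmest of 4 equal groups of genes by mean log2 intensity, 0.04 and -0.02 in the next groups and -0.15 in the brightest. Rheb, Sesn1, Sesn2 and Ddit4 lay in the brightest group, Mtor, Rptor and Tsc2 in the one below it, and Rictor, Tsc1 and Eif4ebp1 in the one below that. After quantile normalization the group medians lay between 0.01 and 0.06, and after cyclic loess between -0.02 and 0.01. These normalizations brought the difference of Sesn2 to -0.68 and -0.70 and that of Ddit4 to -0.57 and -0.59. The share of changed probes that were higher was 45.5% in the deposited values, 57.3% after quantile normalization and 53.6% after cyclic loess. With either normalization Sesn2, Ddit4 and Eif4ebp1 passed the threshold and Sesn1 did not.

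**Figure D3:**
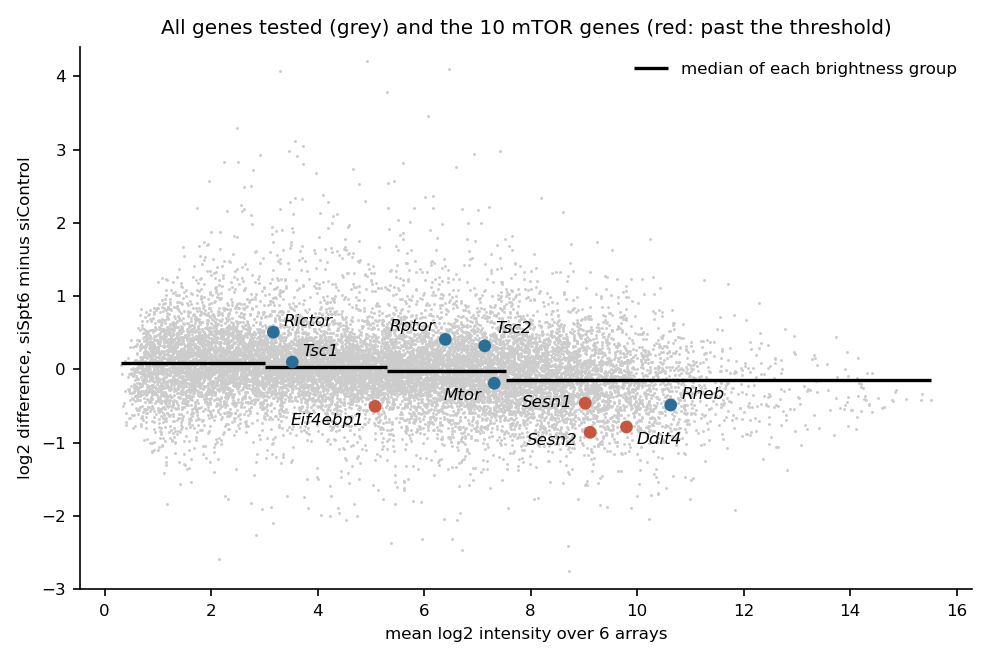
Mean log2 intensity over 6 arrays (x axis) against the log2 difference, siSpt6 minus siControl (y axis), for 15224 genes in grey, with the 10 mTOR genes labelled (red past the threshold, blue not) and black bars at the median of each of 4 equal groups of genes by brightness. The medians go from 0.08 in the dimmest group to -0.15 in the brightest, and Sesn2, Ddit4, Sesn1 and Rheb lie below the bar of their group.

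**Figure D4:**
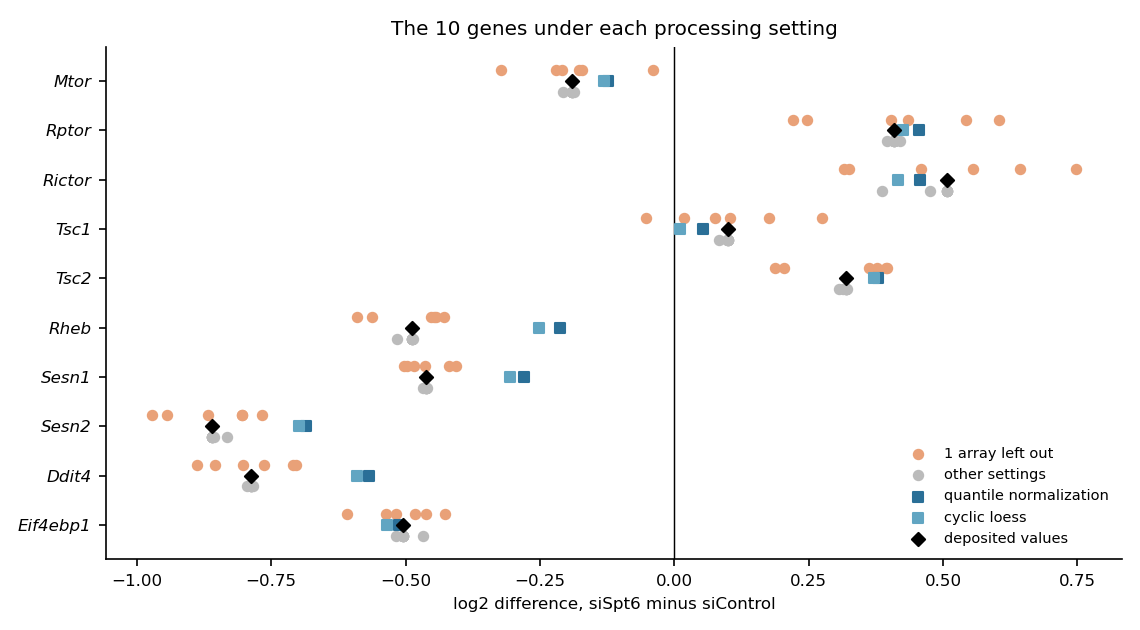
Log2 difference of the 10 genes in the deposited values (black diamonds), after quantile normalization and cyclic loess (blue squares), with 1 array left out (orange) and in the other settings (grey). Sesn2 stays between -0.97 and -0.68 and Ddit4 between -0.89 and -0.57, while the values of Tsc1 fall on both sides of 0.

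Related genes were compared by the log2 ratio of the pair on each array, in 5 pairs. An exact permutation test of 3 arrays against 3 (two-sided) cannot give a p below 0.10. Sesn2 and Sesn3, a further sestrin gene with 138, 119 and 94.3 in siControl and 108.5, 121 and 110.2 in siSpt6, differed most. Sesn3 had a log2 difference of -0.03 (limma adjusted p = 0.930), and the difference between the pair was -0.83, with no overlap between groups (exact permutation p = 0.10, 0.25 adjusted over the pairs). Sesn1 fell less than Sesn2 by 0.40, also without overlap (exact permutation p = 0.10, 0.25 adjusted). The log2 ratios of Rptor to Rictor (difference -0.10, exact permutation p = 0.70, 0.70 adjusted), Tsc1 to Tsc2 (-0.22, exact permutation p = 0.40, 0.67 adjusted) and Eif4ebp1 to Eif4ebp2 (-0.09, exact permutation p = 0.60, 0.70 adjusted) overlapped between groups. Eif4ebp2, a related translational repressor, itself had a log2 difference of -0.41 that missed the threshold (limma adjusted p = 0.0951).

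Promoter sequence was examined for the genes that fell. The 250 bases before the start of Sesn2, Ddit4 and Sesn1, which has 2 listed starts, are shown from RefSeq (GRCm38.p6), 5′ to 3′ on the gene's strand. They lie at chr4:132510457-132510706 (minus strand, Sesn2), chr10:59951771-59952020 (minus strand, Ddit4), and chr10:41810324-41810573 and chr10:41887189-41887438 (plus strand, Sesn1). The sources used here do not give the probes' own positions. Capitals mark CCAAT or its reverse complement ATTGG. Eif4ebp1 is not among the 9 of 10 genes with such a window here.
Sesn2: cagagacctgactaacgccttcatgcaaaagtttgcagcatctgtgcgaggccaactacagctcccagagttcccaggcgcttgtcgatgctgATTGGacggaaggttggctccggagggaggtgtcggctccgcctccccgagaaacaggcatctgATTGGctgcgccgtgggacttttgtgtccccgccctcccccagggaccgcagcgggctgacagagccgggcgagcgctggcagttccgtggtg
Ddit4: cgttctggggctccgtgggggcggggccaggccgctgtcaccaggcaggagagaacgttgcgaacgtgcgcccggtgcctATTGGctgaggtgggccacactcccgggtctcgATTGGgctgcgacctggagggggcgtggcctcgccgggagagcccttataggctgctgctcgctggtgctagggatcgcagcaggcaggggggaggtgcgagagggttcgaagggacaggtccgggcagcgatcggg
Sesn1, upstream start: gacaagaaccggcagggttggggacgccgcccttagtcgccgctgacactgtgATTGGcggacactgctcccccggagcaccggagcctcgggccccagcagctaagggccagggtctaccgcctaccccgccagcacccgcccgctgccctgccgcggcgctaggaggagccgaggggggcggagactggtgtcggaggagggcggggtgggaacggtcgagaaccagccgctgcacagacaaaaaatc
Sesn1, downstream start: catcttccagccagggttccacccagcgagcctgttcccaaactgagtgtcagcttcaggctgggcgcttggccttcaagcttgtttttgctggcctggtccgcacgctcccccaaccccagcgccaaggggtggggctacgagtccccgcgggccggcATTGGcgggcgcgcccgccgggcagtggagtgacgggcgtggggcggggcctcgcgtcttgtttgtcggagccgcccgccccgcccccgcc

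All 4 windows held CCAAT on the strand opposite to the gene's own, so it reads ATTGG in the sequences shown. In Sesn2 it began 157 and 93 bases before the start, in Ddit4 170 and 137 bases, and in the Sesn1 windows 197 and 91 bases. The letters were not particular to the genes that fell: windows of Mtor and Rictor held them too, so 5 of the 9 genes did, and 33.8% of all 32851 windows of this length. The core of amino acid response elements, TGATGNAA, at which ATF4 is known to bind, was found on either strand in 0 of the 9 genes and in 3.45% of all windows. The FOXO core TGTTTAC and the TATA box TATAAA were also found in 0 of the 9 genes (3.17% and 12.4% of all windows). The hypoxia core ACGTG was found 187 bases before the start of Ddit4 and in the windows of Rheb and Rptor (16.6% of all windows). In Rheb it overlapped CACGTG, the E-box, which 6.02% of all windows held and which was in 1 of the 9 genes. TGACNNNGC, the antioxidant response core, began 36 bases before the start of Sesn2 and was also in the window of Rheb (10.2% of all windows). The GC box GGGCGG was in 6 of the 9 genes and 32.7% of windows, and TGACG, which can overlap TGACNNNGC, in 4 of 9 and 17.8%. These are matches of letters in a short window and do not show that a factor binds there.

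Transcription factors known to induce Sesn1, Sesn2, Ddit4 or Eif4ebp1 went in both directions. Of 9 measured, 3 fell and 2 rose, beside 9.65% and 7.40% of all genes. Trp53, the gene of p53, had no probe named and Epas1 had no testable value, so neither was read. Atf4, the main factor of the amino acid response and an inducer of Sesn2, Ddit4 and Eif4ebp1, fell by 1.51 on the log2 scale (SE 0.20; limma adjusted p = 0.00456), and its partner Ddit3 fell by 0.84. Myc, which drives growth genes, fell from 1123 ± 172 to 572 ± 132 (intensity ± SD, n = 3 each), a log2 difference of -0.99 whose limma adjusted p of 0.0224 became 0.0536 and 0.0663 without siControl replicate 1 or 2. Foxo1, a factor of resting B cells that can induce sestrin genes, rose from 192 ± 11.5 to 374 ± 45.6 (log2 difference 0.95, SE 0.13; limma adjusted p = 0.00536). Nfe2l2, the oxidative stress factor NRF2, rose by 0.60 (limma adjusted p = 0.0200), a call lost without 5 of the 6 arrays taken 1 at a time (limma adjusted p up to 0.0664). Hif1a (0.35), Foxo3 (0.51), Nr3c1 (0.16) and Cebpb (0.25) did not pass the test. The part of these factors in the differences of the mTOR genes was not tested.

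The other genes of the pathway were read from lists of 94 genes, of which 78 were measured. Of these 12 rose and 8 fell, with a median log2 difference of 0.04, beside 7.40% higher and 9.65% lower of all genes tested. Among 7 measured subunits and assembly factors of the complexes, Akt1s1, the gene of the mTORC1 inhibitor PRAS40, rose from 181 ± 5.90 to 239.7 ± 11.4 (log2 difference 0.40, SE 0.11; limma adjusted p = 0.0487). Tti1, which helps to assemble mTOR and related kinases, fell from 151 ± 11.5 to 97.2 ± 15.8 (log2 difference -0.65; limma adjusted p = 0.0347). Leaving out any 1 of the 6 arrays ended either call (limma adjusted p from 0.0833 to 0.134 and from 0.0566 to 0.0926). Mlst8 (-0.26), Deptor (-0.45), Mapkap1 (-0.16), Prr5l (-0.20) and Telo2 (-0.19) did not pass the test. The list's median was -0.20.

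Relatives of the 10 genes included a clear fall of Rhebl1, a GTPase related to Rheb. It read 144, 144 and 136 in siControl and 77.4, 64.6 and 71.2 in siSpt6 (log2 difference -0.996, SE 0.12; limma adjusted p = 0.00324), and passed the test in all 16 settings. Tbc1d7, a subunit of the TSC complex, rose from 89.1 ± 0.798 to 143 ± 24.1 (log2 difference 0.67, SE 0.15; limma adjusted p = 0.0238), a call lost without siSpt6 replicate 1 or any 1 of the siControl arrays (limma adjusted p up to 0.0682). Of 4 relatives measured, the other two were Sesn3 and Eif4ebp2.

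Of 22 measured genes of amino acid sensing at the lysosome, 5 rose and 0 fell (limma), with a median log2 difference of 0.14, where 7.40% of all genes rose and 9.65% fell. At an unadjusted p under 0.05, 9 were higher and 2 lower (13.9% and 17.4% of all genes). Castor1, the cytosolic arginine sensor, read 142, 134 and 134 in siControl and 287, 289 and 293 in siSpt6, a log2 difference of 1.09 (SE 0.10; limma adjusted p = 0.00163). The replicates of both groups were close together and far from those of the other group. Slc38a9, a lysosomal transporter that senses arginine, went from 74.9 ± 4.75 to 144 ± 15.1 (log2 difference 0.93, SE 0.13; limma adjusted p = 0.00496). Castor1 and Slc38a9 kept their calls in all 16 settings. Rragc and Rragd, subunits of the Rag GTPases that recruit mTORC1, and Lamtor5, a subunit of their Ragulator anchor, also rose (log2 differences 0.47, 0.78 and 0.58; limma adjusted p = 0.0475, 0.0461 and 0.0402), and were named after their values were seen. The call of Rragc was lost without any 1 of the 6 arrays, and those of Rragd and Lamtor5 without any 1 of 5 (limma adjusted p up to 0.134, 0.127 and 0.112). Rragd also missed the threshold after quantile normalization, after cyclic loess and with array weights (limma adjusted p = 0.0555, 0.0624 and 0.0558). The list's median was 0.33 and 0.30 after those normalizations.

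Of the energy and growth factor genes measured, only Pik3r3 passed the threshold. Over all genes, 7.40% rose and 9.65% fell at that threshold, and 13.9% were higher and 17.4% lower at an unadjusted p under 0.05. Of 8 measured genes of LKB1 and AMPK, the energy-sensing kinase that inhibits mTORC1, 0 passed the threshold of limma's adjusted p. The nearest was Prkaa1, a catalytic subunit (log2 difference -0.49; limma adjusted p = 0.0648), named after its value was seen. It was the 1 gene of the list with an unadjusted p under 0.05. Of 13 genes of the PI3K and AKT arm, Pik3r3, a regulatory subunit of PI3K, rose from 25.6 ± 2.58 to 37.7 ± 2.56 (log2 difference 0.56; limma adjusted p = 0.0288) and 0 fell, with 3 higher and 1 lower at an unadjusted p under 0.05. Inpp5d, a phosphatase of PI3K lipid products (log2 difference 0.64; limma adjusted p = 0.0552), and Phlpp2, an AKT phosphatase (-1.09, SE 0.47; limma adjusted p = 0.170), missed the threshold without overlap between groups, and were named after their values were seen. The call of Pik3r3 was lost without any 1 array other than siControl replicate 2 (limma adjusted p up to 0.0895). The medians of both lists were -0.04 and 0.13.

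Among 15 measured substrates and outputs of mTORC1, 2 rose and 3 fell (7.40% and 9.65% of all genes). At an unadjusted p under 0.05, 2 were higher and 6 lower (13.9% and 17.4% of all genes). The median log2 difference of -0.07 turned to 0.04 after quantile normalization and 0.03 after cyclic loess. Tfeb, the factor of lysosome genes that mTORC1 keeps out of the nucleus, read 59.8, 61.1 and 64.5 in siControl and 163, 113 and 190 in siSpt6 (log2 difference 1.29, SE 0.20; limma adjusted p = 0.00744). All siSpt6 arrays were above the siControl arrays, with a wide spread among them. Atg13, an autophagy initiation factor, rose by 0.45 (limma adjusted p = 0.0444), a call that ended when any 1 of the 6 arrays was left out (limma adjusted p up to 0.127). Lpin1, a lipin phosphatase regulated by mTORC1, fell from 73.5 ± 0.859 to 38.5 ± 4.91 (log2 difference -0.94, SE 0.13; limma adjusted p = 0.00510). Eif4b, an initiation factor phosphorylated downstream of mTORC1, fell by 0.82 (limma adjusted p = 0.0115) and by 0.53 after quantile normalization, short of the threshold (limma adjusted p = 0.0603). Larp1, which binds the mRNAs of ribosomal proteins, fell by 0.60 (limma adjusted p = 0.0289), a call lost without any 1 array other than siSpt6 replicate 3 (limma adjusted p up to 0.0881), and was chosen for naming with its value known. The gene of the S6 kinase, Rps6kb1, and of eIF4E itself, Eif4e, named likewise, did not pass the test (log2 differences 0.28 and -0.49; limma adjusted p = 0.435 and 0.159).

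**Figure D5:**
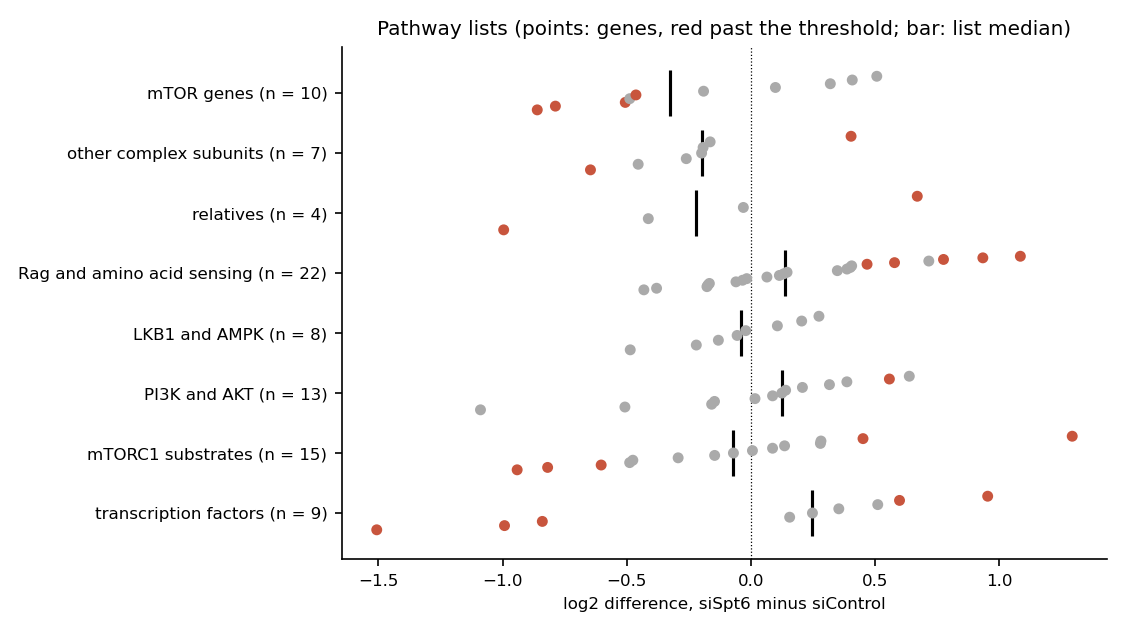
Log2 difference, siSpt6 minus siControl, of each measured gene (points) in the 10 mTOR genes and 7 lists of the pathway, red for limma adjusted p under 0.05, with a bar at each list's median. The median of the mTOR genes is -0.33 and that of the Rag and amino acid sensing list 0.14, and the transcription factors lie on both sides of 0.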

How the data were processed

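The authors deposited a table of linear array intensity values in arbitrary units, 1 column per array. Per the labels' protocols, amplified amino allyl RNA was coupled to Cy5 for a TORAY array. The sources used here do not give how background was corrected or arrays were normalized. The nearly equal array medians come from the values themselves. With 3 arrays per group, their number limits the precision.

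Blanks were taken as missing, and probes were named from a probe table with symbols updated through RefSeq (GRCm38.p6), where 16631 probes had a symbol. Mtor, Rptor and Rictor were listed under older symbols. A probe was tested with at least 2 values in each group (21584 probes). Log2 values, without a pseudocount, were fitted with limma 3.58.1 in R 4.3.3 (lmFit and eBayes, group as the only term), two-sided, with Benjamini-Hochberg adjustment over all tested probes and a threshold of 0.05. Where a gene had several probes, the brightest was used. Fold values are ratios of geometric means. The script was tested on simulated data.

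The genes and lists were chosen with earlier results of these data known. Named genes were the 10 genes, Supt6, both genes of each pair, the transcription factors, and up to 2 rises and 2 falls per list by adjusted p. Of the 94 listed pathway genes 16, and 7 of 30 cell type markers, were not analysed here. The pair of Ddit4 and Ddit4l was left out, since Ddit4l lacked values. Alternatives were other normalizations, filters, a pseudocount, variance models, array weights, the replicate block, the mean of a gene's probes, a stricter threshold and each array left out.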

Additional observations from a re-analysis of the deposited data

How the results depend on the processing

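Leaving out 1 array at a time gave 2099 to 2522 changed probes, against 3525 with all arrays (2099 without siControl replicate 1, 2230 without siControl replicate 2, 2308 without siSpt6 replicate 1 and 2160 without siSpt6 replicate 2), and 2 to 3 of the 10 mTOR genes past the threshold against 4. The count was 2, Sesn2 and Ddit4, without siControl replicate 1 or 2 or siSpt6 replicate 1 or 2. Rheb joined them without siControl replicate 3 (limma adjusted p = 0.0494), and Eif4ebp1 did without siSpt6 replicate 3 (limma adjusted p = 0.0364). An adjusted p under 0.01 kept 1354 probes and 0 of the 10 genes (limma; 5 had an unadjusted p under 0.05). Fewer arrays enter these fits. The other settings gave 3 to 5 of the 10 genes. The other gene past the threshold was Rheb with bright probes only, a pseudocount of 2.66, trend and robust options or array weights, and the cause was not tested. With bright probes only, which leaves out Rictor and Tsc1, the median of the other mTOR genes was -0.48. The Rptor and Rictor difference changed sign after cyclic loess (0.0081) and ranged from -0.34 to 0.14 with 1 array left out, and that of Eif4ebp1 and Eif4ebp2 from -0.26 to 0.022. Sesn3 changed sign after quantile normalization (0.025) and cyclic loess (0.0057) and ranged from -0.18 to 0.096 with 1 array left out, Tsc1 from -0.052 to 0.27 and Nr3c1 from -0.055 to 0.27. None of these differences passed a threshold.

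Same-numbered arrays deviated together with r of 0.35, 0.076 and 0.26, and each array correlated best with its own number, a hint from the data; the labels do not say what the numbers share. With the replicate block 3594 probes and 5 of the 10 genes passed, the fifth being Rictor (limma adjusted p = 0.0417), and Akt1s1, Pik3r3, Rragc and Rragd missed the threshold (limma adjusted p = 0.0529, 0.0512, 0.0532 and 0.0958). Median centring, complete probes and the mean of a gene's probes changed no call among the 10 genes. The dim probes of Rictor and Tsc1 have no stated background and limit what can be said of those genes.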
